A study of Arabidopsis thaliana with 15 samples.

Results

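The genes described here encode small secreted signalling peptides of Arabidopsis thaliana, and their transcripts were followed in roots fixed aboard an aircraft in parabolic flight. Members were taken by symbol: every array row annotated to exactly 1 gene whose symbol is CLE, RALFL, RALF, IDL, EPFL, RGF, GLV, CEP or PSK followed by a number. The rule gave 36 of 16550 genes, namely 16 CLE, 18 RALFL and 2 IDL genes, and it gave none for the other stems. The RefSeq gene table lists 87 genes with such symbols, and those without a row of their own, all RGF, CEP and PSK genes among them, were not analysed here.

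All seedlings were 10 days old, were of the Wassilewskija (WS) background and carried pCaMV35S:14-3-3κ:GFP, a fusion of a 14-3-3 adaptor protein to green fluorescent protein under a promoter that is active in most plant cells. They were placed in fixation tubes on the morning before the flight and were fixed in RNAlater on a C-9 aircraft, whose parabolas alternate short spells of near weightlessness with spells of raised load. Whole roots were dissected afterwards, and total RNA was hybridised to 1-colour Affymetrix arrays with 1 array per root pool. There were 4 arrays from level flight, taken ahead of the parabolas, 4 after the first parabola, 4 after the third and 3 after the tenth. No line without the transgene is among the samples used here, so every value below belongs to the overexpressing line. All pools of a condition came from 1 tube, so condition, tube and time in flight cannot be told apart, and the spread between arrays is the spread within a tube.

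Secreted peptides carry messages between neighbouring plant cells: a short peptide is cut from a precursor, leaves the cell and is read by receptor kinases in the membrane of another cell. CLE peptides (named for CLAVATA3 and ESR) are read mainly by leucine-rich repeat receptor kinases and are best known for keeping stem cell niches and vascular files in order. RALF peptides (rapid alkalinization factors) are rich in cysteine, are read by kinases of the FERONIA family and raise the pH of the cell wall space, which slows root cell expansion. IDA-like (IDL) peptides are relatives of the peptide that drives floral organ shedding and that helps cells separate where a lateral root emerges.

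Values are the log2 intensities that the submitters made, and a difference of 1 is a doubling. Differences were tested with limma over all 16550 genes, and a gene was called where its Benjamini-Hochberg adjusted p was under 0.05. The arrays had like centres, with medians over the tested genes of 3.65 to 3.70. Of the 36 peptide genes, 18 lay below the array median on all 15 arrays, as did 43.4% of all tested genes, and 14 lay above it on all 15. The root hair expansin EXPA7 was above that median on every array, 1 of 13 shoot markers (RCA) was measured, and none of 13 markers of endodermis, vascular tissue and root cap was. RCA averaged 5.54 ± 0.05 after the first parabola, 5.61 ± 0.23 after the third and 5.77 ± 0.46 after the tenth, against 5.44 ± 0.11 in level flight (SD), and was not called; its part in the results was not tested. The rows that carry no gene name moved with the groups: their median per array averaged 3.97 ± 0.04 after the first parabola, 3.84 ± 0.09 after the third and 3.75 ± 0.09 after the tenth, against 3.86 ± 0.04 in level flight (SD). Calls that were lost when this median entered the fit are named below. The median itself goes with the groups: it ran from 3.93 to 4.02 after the first parabola and from 3.69 to 3.85 after the tenth. With it in the fit, group differences can be estimated less precisely, so a lost call need not mean a smaller change.

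After the first parabola, 5 of the 36 peptide genes were called against level flight, beside a background of 8.33% of all tested genes. CLE26 and IDL4 were higher (3.47% of all genes were), and RALFL18, RALFL22 and RALFL27 were lower (4.85% of all genes were). After the third parabola 6 were called, beside a background of 11.2%: RALFL28 and RALFL31 were higher (background 4.48%), and RALFL18, RALFL27, CLE27 and CLE43 were lower (background 6.69%). After the tenth parabola 7 were called, beside a background of 14.6%: CLE42, IDL4 and RALFL31 were higher (background 7.53%), and RALFL18, RALFL27, RALFL34 and CLE27 were lower (background 7.11%). The members called were 13.9%, 16.7% and 19.4% of the 36 in the order of the parabolas. Groups did not overlap with level flight in 6, 5 and 9 members in the same order, beside backgrounds of 14%, 15.8% and 24.2%. In an F-test that took these 3 contrasts together, 5 members passed, or 13.9%, beside a background of 15.7%, so by that test the peptide genes were called about as often as other genes. All 3 contrasts use the same 4 level flight arrays. These are bulk roots, and fewer cells of a type cannot be told apart from less RNA per cell.

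**Figure D1:**
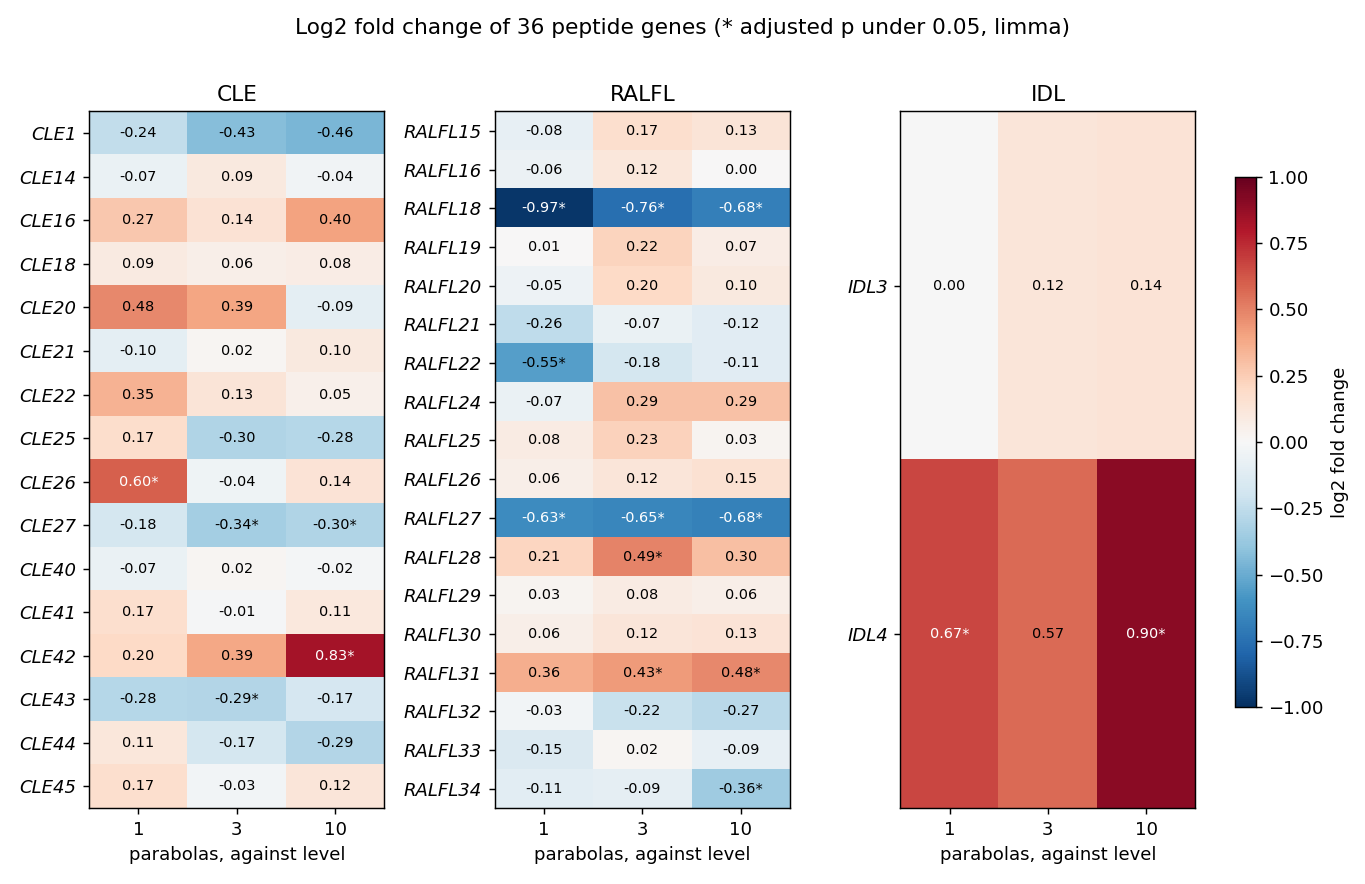
Log2 fold change of each of the 36 peptide genes after 1, 3 and 10 parabolas against level flight, by family; red is higher and blue lower after the parabolas, and a star marks an adjusted p under 0.05 (limma). The stars fall on 11 genes, and only RALFL18 and RALFL27 are starred in every column.

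The median change of the 36 was 0.00145 after the first parabola, where that of all tested genes was 0.00796. It was 0.07 after the third parabola beside 0.03 for all genes, and 0.05 after the tenth beside 0.04 for all genes. Changes of single members ran from -0.97 to 0.67 after the first parabola, from -0.76 to 0.57 after the third and from -0.68 to 0.90 after the tenth.

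**Figure D2:**
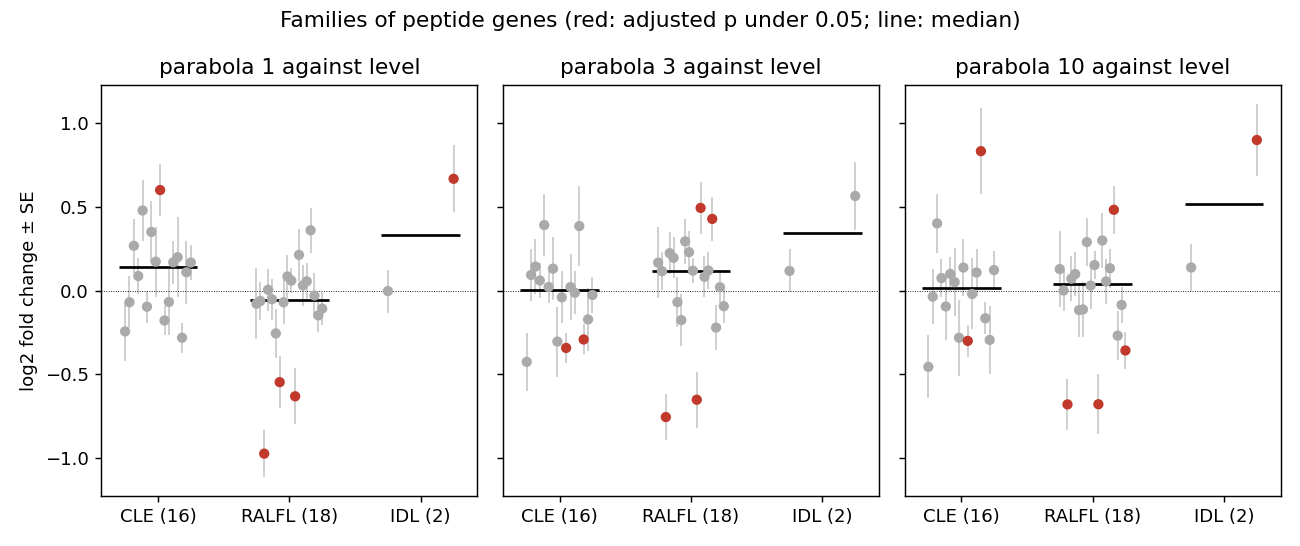
Log2 fold change with its standard error for each peptide gene in the CLE (16), RALFL (18) and IDL (2) families, for 1, 3 and 10 parabolas against level flight; red points were called and the line is the family median. Called genes lie on both sides of 0 in the RALFL family after 3 and 10 parabolas and in the CLE family after 10. The CLE and RALFL medians lie between -0.06 and 0.14, and those of the 2 IDL genes between 0.33 and 0.52.

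Among the RALF-like genes 3 of 18 were called after the first parabola, all lower; 4 after the third, 2 in each direction; and 4 after the tenth, 1 higher and 3 lower. These were 16.7%, 22.2% and 22.2% of the family, beside 8.33%, 11.2% and 14.6% of all tested genes. The strongest change among the peptide genes was in RALFL18 (AT2G33130), a RALF family precursor. RALFL18 was at 4.55, 4.28, 4.43 and 4.37 after the first parabola, 4.63, 4.34, 5.03 and 4.51 after the third, and 4.80, 4.69 and 4.62 after the tenth, against 5.24, 5.28, 5.76 and 5.26 in level flight. All 11 parabola arrays lay below all 4 level flight arrays. RALFL18 fell by 0.97 ± 0.14 (SE) after the first parabola, which is 1.96-fold, with adjusted p = 0.000149. It was still lower after the third parabola (-0.76 ± 0.14, adjusted p = 0.00145) and after the tenth (-0.68 ± 0.15, adjusted p = 0.00472). The differences between its parabola groups were not called. With the median of the unnamed rows in the fit, the tenth-parabola change was -0.61 and the adjusted p 0.0526; leaving out any 1 array ended no RALFL18 call.

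RALFL27 (AT3G29780), also a RALF family gene, was dim, below the array median on all 15 arrays. RALFL27 was at 2.46, 2.27, 2.56 and 2.34 after the first parabola, 2.26, 2.46, 2.34 and 2.48 after the third, and 2.48, 2.23 and 2.37 after the tenth, against 2.87, 3.59, 2.48 and 3.21 in level flight. Level flight replicate 3 lay among the parabola arrays, while the other 3 level flight arrays were above all of them. RALFL27 fell in all 3 contrasts, by 0.63 ± 0.17 after the first parabola (adjusted p = 0.0228), by 0.65 ± 0.17 after the third (adjusted p = 0.0155) and by 0.68 ± 0.18 after the tenth (adjusted p = 0.0150). The first-parabola call was lost without level flight replicate 2 or 4 or first-parabola replicate 2 or 4 (adjusted p 0.0611 to 0.0753), and with the unnamed-row median in the fit (adjusted p = 0.202). The third-parabola call was lost without level flight replicate 4 (adjusted p = 0.0530), and the tenth-parabola call without tenth-parabola replicate 2 (adjusted p = 0.0714).

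RALFL22 (AT3G05490), whose peptide binds FERONIA and the cell wall's leucine-rich extensins and acts in salt tolerance, was called lower after the first parabola. It was at 5.64, 5.76, 6.04 and 6.32 after the first parabola, 6.29, 6.29, 6.48 and 6.19 after the third, and 6.56, 6.53 and 6.02 after the tenth, against 6.31, 6.38, 6.45 and 6.81 in level flight. First-parabola replicate 4 reached the lowest level flight array, and the other 3 lay below all 4. RALFL22 fell by 0.55 ± 0.15 after the first parabola (adjusted p = 0.0342) and differed from level flight by -0.18 ± 0.15 after the third (adjusted p = 0.538) and -0.11 ± 0.17 after the tenth (adjusted p = 0.727). The third-parabola minus first-parabola difference was 0.37 ± 0.15 with a 95% interval of 0.05 to 0.70, but its adjusted p was 0.268, so a return was not called. The first-parabola call was lost without level flight replicate 3 or 4 or first-parabola replicate 1, 2 or 3 (adjusted p 0.0543 to 0.125), and with the unnamed-row median in the fit (-0.36, adjusted p = 0.302).

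RALFL34 (AT5G67070), known from the divisions that start a lateral root and as a ligand of the FERONIA relative THESEUS1, was called after the tenth parabola. RALFL34 was at 5.11, 5.19, 4.92 and 4.98 after the first parabola, 5.11, 5.11, 4.91 and 5.13 after the third, and 4.60, 4.96 and 4.85 after the tenth, against 5.12, 5.16, 5.28 and 5.07 in level flight. The 3 tenth-parabola arrays lay below the 4 level flight arrays, while the first- and third-parabola arrays overlapped them. RALFL34 fell by 0.36 ± 0.11 after the tenth parabola, which is 1.28-fold, with adjusted p = 0.0320. Its change was -0.11 ± 0.10 after the first parabola (adjusted p = 0.643) and -0.09 ± 0.10 after the third (adjusted p = 0.625). The call was lost without level flight replicate 1, 2 or 3 or tenth-parabola replicate 1 or 3 (adjusted p 0.0509 to 0.174) and with the unnamed-row median in the fit (adjusted p = 0.223).

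The RALF-like genes with higher values were RALFL31 and RALFL28. RALFL31 (AT4G13950) was at 6.50, 6.59, 7.01 and 6.78 after the first parabola, 6.47, 6.79, 7.04 and 6.85 after the third, and 6.73, 6.94 and 6.86 after the tenth, against 6.20, 6.55, 6.48 and 6.21 in level flight. Only the tenth-parabola arrays lay above all 4 level flight arrays. RALFL31 rose by 0.43 ± 0.13 after the third parabola (adjusted p = 0.0468) and by 0.48 ± 0.14 after the tenth (adjusted p = 0.0301), and its first-parabola change of 0.36 ± 0.13 was not called (adjusted p = 0.120). The third-parabola call was lost without level flight replicate 1, 3 or 4, first-parabola replicate 2 or 4, third-parabola replicate 2, 3 or 4 or tenth-parabola replicate 2 or 3 (adjusted p 0.0523 to 0.143). The tenth-parabola call was lost without level flight replicate 1 or 4 or tenth-parabola replicate 2 or 3 (adjusted p 0.0707 to 0.116), and with the unnamed-row median in the fit the adjusted p was 0.0569 after the third parabola and 0.275 after the tenth.

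RALFL28 (AT4G11510) was dim on every array and was called only after the third parabola. It was at 2.60, 2.98, 3.07 and 2.72 after the first parabola, 2.69, 3.27, 3.33 and 3.20 after the third, and 2.70, 2.91 and 3.17 after the tenth, against 2.72, 2.41, 2.87 and 2.52 in level flight. Third-parabola replicate 1 lay inside the level flight range and the other 3 lay above it. RALFL28 rose by 0.49 ± 0.15 after the third parabola (adjusted p = 0.0461), and its changes of 0.21 ± 0.15 after the first (adjusted p = 0.516) and 0.30 ± 0.17 after the tenth (adjusted p = 0.266) were not called. The call was lost without level flight replicate 1, 2 or 4, first-parabola replicate 2 or 4, third-parabola replicate 2, 3 or 4 or tenth-parabola replicate 2 (adjusted p 0.0520 to 0.133), and with the unnamed-row median in the fit (adjusted p = 0.0613).

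The other 12 RALF-like genes were not called in any contrast. Of these only RALFL32 was above the array median on every array, and it ran from 7.71 to 8.51. Its 3 tenth-parabola arrays, at 7.97, 7.98 and 7.83, lay below its 4 level flight arrays at 8.17, 8.06, 8.40 and 8.15, yet the change of -0.27 had an adjusted p of 0.254. RALFL24 had log2 differences of -0.07, 0.29 and 0.29 in the order of the parabolas. RALFL33, another FERONIA ligand, had log2 differences of -0.15, 0.02 and -0.09. RALFL19, whose peptide acts in pollen tubes, lay between 2.23 and 3.01 on all 15 arrays and had log2 differences of 0.01, 0.22 and 0.07.

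Among the CLE genes 1 of 16 was called after the first parabola, 2 after the third and 2 after the tenth. At 6.25%, 12.5% and 12.5% of the family, these shares were near or below the 8.33%, 11.2% and 14.6% of all tested genes. CLE26 (AT1G69970), a root peptide that acts on phloem formation and root architecture, was called against level flight after the first parabola. CLE26 was at 4.85, 4.84, 4.78 and 4.65 after the first parabola, 4.51, 3.87, 4.40 and 3.78 after the third, and 4.40, 4.17 and 4.39 after the tenth, against 4.39, 4.39, 3.86 and 4.07 in level flight. The 4 first-parabola arrays lay above all 11 other arrays, and the later groups overlapped level flight. CLE26 rose by 0.60 ± 0.16 after the first parabola, which is 1.52-fold, with adjusted p = 0.0206, and its change was -0.04 ± 0.16 after the third (adjusted p = 0.910) and 0.14 ± 0.17 after the tenth (adjusted p = 0.662).

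CLE26 was also the 1 peptide gene called between parabola groups. It was lower after the third parabola than after the first by -0.64 ± 0.16 (adjusted p = 0.0438), beside a background of 1.72% of all genes, and the tenth-parabola minus first-parabola difference was -0.46 ± 0.17 (adjusted p = 0.147). The call against level flight was lost without level flight replicate 3 or 4 or first-parabola replicate 1 or 2 (adjusted p 0.0526 to 0.0765), and with the unnamed-row median in the fit (0.44, adjusted p = 0.203). The third-against-first call was lost without level flight replicate 1 or 4, any first-parabola array, third-parabola replicate 2 or 4 or any tenth-parabola array (adjusted p 0.0509 to 0.138), and with the unnamed-row median in the fit (-0.45, adjusted p = 0.530). The unnamed-row median was itself highest in the first-parabola group.

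CLE42 (AT2G34925) belongs with CLE41 and CLE44 to the CLE peptides that the receptor kinase PXY reads, which keep dividing vascular cells from turning into xylem. CLE42 was at 5.06, 5.16, 4.50 and 4.64 after the first parabola, 5.01, 4.70, 5.32 and 5.07 after the third, and 5.27, 5.73 and 5.42 after the tenth, against 4.96, 5.35, 4.29 and 3.96 in level flight. The level flight arrays were widely spread (SD 0.63), and replicate 2 among them lay inside the tenth-parabola range. CLE42 rose by 0.83 ± 0.26 after the tenth parabola, which is 1.78-fold, with adjusted p = 0.0367. Its change was 0.20 ± 0.24 after the first parabola (adjusted p = 0.737) and 0.39 ± 0.24 after the third (adjusted p = 0.350). The call was lost without level flight replicate 3 or 4 or any tenth-parabola array (adjusted p 0.0556 to 0.155). With the unnamed-row median in the fit the change was again 0.83, but the call was lost (adjusted p = 0.139).

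The other genes of the PXY ligand group were not called. CLE41 had log2 differences of 0.17 after the first parabola, -0.01 after the third and 0.11 after the tenth, and its 15 arrays ran from 6.79 to 7.47. CLE44 had log2 differences of 0.11, -0.17 and -0.29 over the same contrasts.

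CLE27 and CLE43, both below the array median on all 15 arrays, were lower after parabolas. Both were among the 25% of tested genes with the lowest mean, and the fit without those genes holds neither. CLE27 (AT3G25905) was at 2.30, 2.09, 2.15 and 2.16 after the first parabola, 1.88, 1.98, 2.09 and 2.09 after the third, and 2.06, 1.99 and 2.11 after the tenth, against 2.42, 2.41, 2.24 and 2.34 in level flight. Its third- and tenth-parabola arrays lay below the 4 level flight arrays. CLE27 fell by 0.34 ± 0.09 after the third parabola (adjusted p = 0.0153) and by 0.30 ± 0.09 after the tenth (adjusted p = 0.0390), and its first-parabola change of -0.18 ± 0.09 was not called (adjusted p = 0.271). The third-parabola call was lost without level flight replicate 1 (adjusted p = 0.0507), and the tenth-parabola call without level flight replicate 1, 2 or 4 or tenth-parabola replicate 1 or 2 (adjusted p 0.0689 to 0.139) and with the unnamed-row median in the fit (adjusted p = 0.0902).

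CLE43 (AT1G25425) was at 2.06, 2.09, 1.91 and 2.05 after the first parabola, 2.06, 2.12, 1.96 and 1.93 after the third, and 2.06, 2.19 and 2.18 after the tenth, against 2.45, 2.15, 2.35 and 2.29 in level flight. The first- and third-parabola arrays lay below all 4 level flight arrays. CLE43 fell by 0.29 ± 0.09 after the third parabola (adjusted p = 0.0437), while its changes of -0.28 ± 0.09 after the first (adjusted p = 0.0638) and -0.17 ± 0.10 after the tenth (adjusted p = 0.298) were not called. The call was lost without level flight replicate 1, 3 or 4, first-parabola replicate 1, 2 or 4, third-parabola replicate 1, 3 or 4 or tenth-parabola replicate 2 (adjusted p 0.0502 to 0.137), and with the unnamed-row median in the fit (adjusted p = 0.0577). Centring each array on the mean of 4 reference genes brought the first-parabola change to -0.42 (limma adjusted p = 0.00875). That centring moved the first-parabola change of every gene down alike, and the median of all genes to -0.13.

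Among the CLE genes that were not called, some had groups that did not overlap. CLE20, known from its effect on the root meristem, was at 5.43, 5.20, 5.36 and 5.82 after the first parabola and 5.53, 5.07, 5.19 and 5.67 after the third, against 5.06, 4.86, 5.03 and 4.94 in level flight. Both groups lay above level flight, but the changes of 0.48 and 0.39 had adjusted p of 0.135 and 0.197. After the tenth parabola CLE20 was at 5.15, 5.20 and 4.29, a difference of -0.09 from level flight and of -0.57 from the first parabola, whose arrays all lay higher; neither was called. CLE1, known from nitrogen shortage and lateral root growth, had log2 differences of -0.24, -0.43 and -0.46 in the order of the parabolas, and its tenth-parabola arrays, at 3.56, 3.79 and 4.02, lay below level flight at 4.14, 4.56, 4.16 and 4.11 (adjusted p = 0.123). CLE16 had a log2 difference of 0.40 after the tenth parabola with arrays at 5.36, 5.41 and 5.29, above level flight at 5.06, 5.02, 4.86 and 4.87 (adjusted p = 0.146).

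CLE25, a peptide that travels to leaves when roots dry, had log2 differences of 0.17, -0.30 and -0.28 in the order of the parabolas. CLE14 was at 6.58 to 7.32 over all arrays and had log2 differences of -0.07, 0.09 and -0.04. CLE45, which restrains protophloem through the receptor BAM3, had log2 differences of 0.17, -0.03 and 0.12, and CLE40, a root tip stem cell peptide, of -0.07, 0.02 and -0.02. CLE45 and CLE40 were below the array median on all 15 arrays.

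IDL4 (AT3G18715), an IDA-like peptide gene, was higher after parabolas. IDL4 was at 5.30, 5.34, 5.39 and 5.19 after the first parabola, 5.48, 4.76, 4.78 and 5.77 after the third, and 5.40, 5.50 and 5.70 after the tenth, against 4.23, 5.12, 4.57 and 4.61 in level flight. The first- and tenth-parabola arrays lay above all 4 level flight arrays, and third-parabola replicates 2 and 3 did not. IDL4 rose by 0.90 ± 0.22 after the tenth parabola, which is 1.87-fold, with adjusted p = 0.00853, and this call was kept when any 1 array was left out. It rose by 0.67 ± 0.20 after the first parabola, which is 1.59-fold, with adjusted p = 0.0480, and its third-parabola change of 0.57 ± 0.20 was not called (adjusted p = 0.0823). The first-parabola call was lost without level flight replicate 1, 3 or 4, any first-parabola array or any tenth-parabola array (adjusted p 0.0539 to 0.168), and with the unnamed-row median in the fit (0.54, adjusted p = 0.260). The other IDL gene, IDL3, had log2 differences of -0.0024 after the first parabola, 0.12 after the third and 0.14 after the tenth, and was not called.

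Other settings also ended calls. Reference gene centring ended the first-parabola calls of CLE26 (0.46, adjusted p = 0.0699) and IDL4 (0.53, adjusted p = 0.0900), both RALFL31 calls (adjusted p 0.119 and 0.111), and those of RALFL28 (adjusted p = 0.0812) and CLE42 (adjusted p = 0.0554). Testing all array rows ended the first-parabola calls of RALFL22 (adjusted p = 0.0648) and IDL4 (adjusted p = 0.0922), both RALFL31 calls (adjusted p 0.0772 and 0.0525), and those of RALFL28 (adjusted p = 0.0814) and CLE42 (adjusted p = 0.0736). With the arrays of the compared groups alone, all 3 RALFL27 calls were lost (adjusted p 0.0684, 0.0551 and 0.0648 in the order of the parabolas), as were the first-parabola call of RALFL22 and the third-parabola calls of CLE43, RALFL28 and RALFL31 (adjusted p 0.0518 to 0.0820). The tenth-parabola calls of CLE27, CLE42 and RALFL34 were lost there as well (adjusted p 0.0639 to 0.0815). Median centring ended the CLE43 call (adjusted p = 0.0546) and repeated quantile normalization the RALFL28 call (adjusted p = 0.0510).

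**Figure D3:**
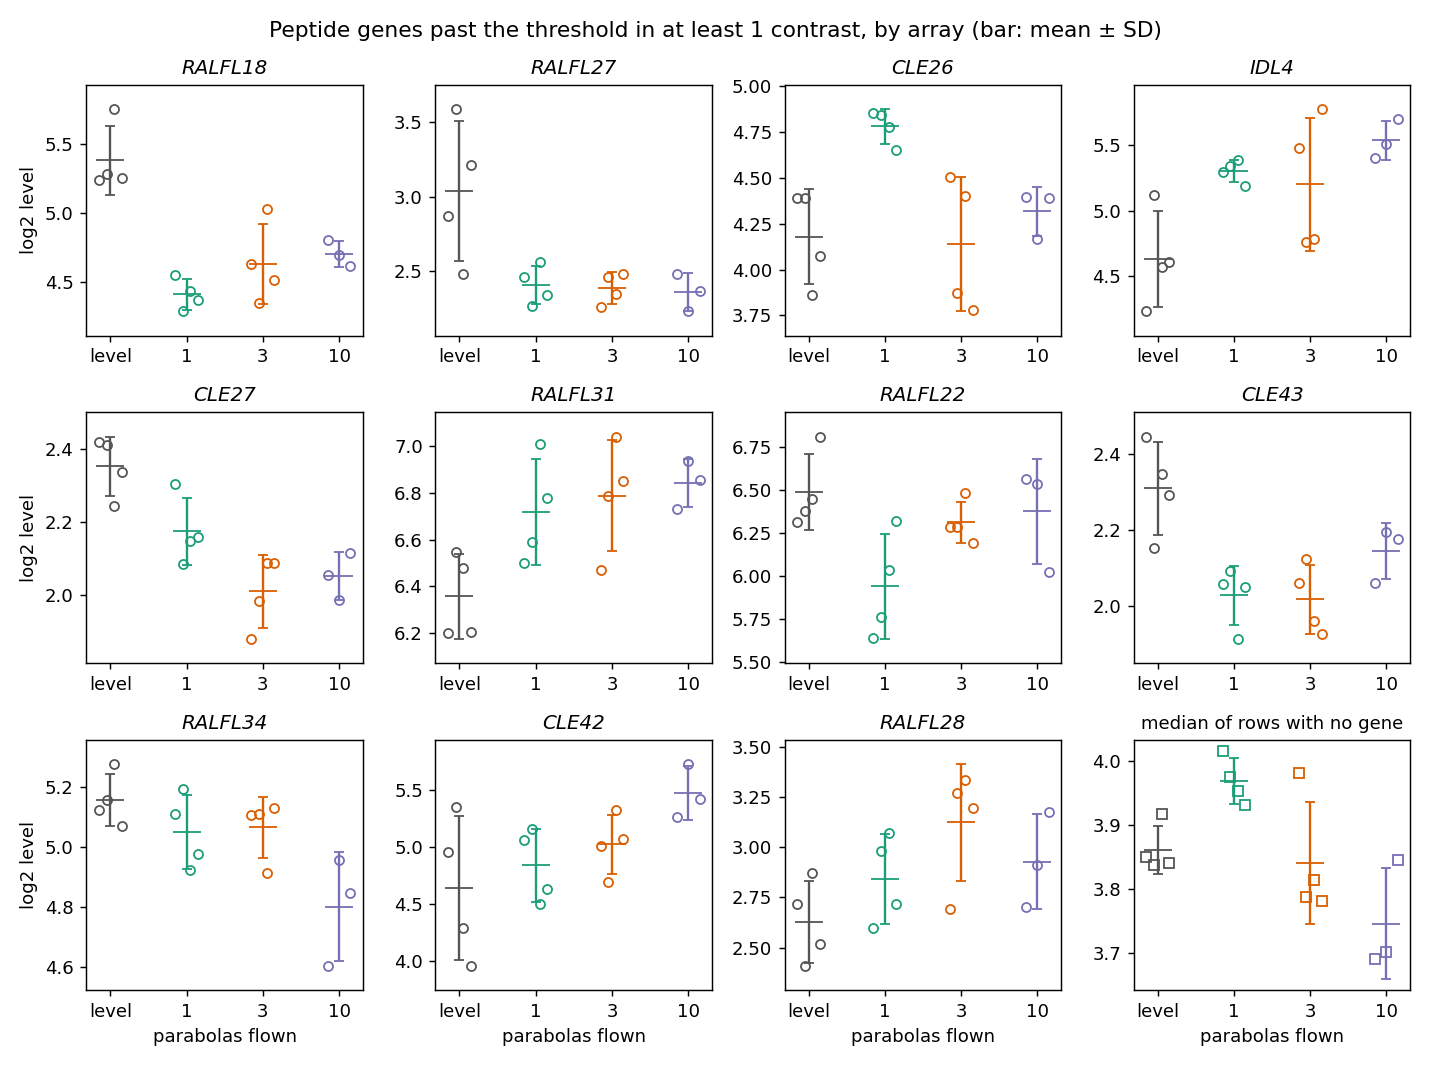
Log2 intensity on each array (points) with the mean and SD (bar) of the 11 called peptide genes in level flight and after 1, 3 and 10 parabolas (4, 4, 4 and 3 arrays), and in the last panel the median over the rows with no gene. RALFL18 lies below level flight in every parabola group, the first-parabola arrays of CLE26 lie above its others, and the group means of IDL4 and CLE42 are highest after the tenth.

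Differences between parabola groups were few. No peptide gene was called between the tenth and the third parabola, beside a background of 1.17%, or between the tenth and the first, beside a background of 3.56%; at an unadjusted p under 0.05 limma gave 2 and 6 members, beside backgrounds of 12.8% and 17.5%. Of the 18 RALF-like genes 16 were above 0 in the third-parabola minus first-parabola difference, as were 9030 of all 16550 genes. Their median was 0.17 beside 0.02 for all genes, and 11 of the 18 lay below the array median on every array. Of the 16 CLE genes 4 were above 0, with a median of -0.14. By limma, 0 RALF-like genes were called in that contrast, and CLE26 was the 1 CLE gene. At an unadjusted p under 0.05, 2 RALF-like genes were higher, and of all 16550 genes 1192 were higher and 1206 lower. The unnamed-row median also differed between these groups, and its part in the family medians was not tested.

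On the receiving side, 11 of 38 genes of a receptor and co-receptor list had a row of their own. Of these 2 were called lower after the first parabola, 1 after the third, and 1 lower and 1 higher after the tenth. These were 18.2%, 9.09% and 18.2% of the 11, beside 8.33%, 11.2% and 14.6% of all tested genes. The calls fell on AT3G24240 and AT5G48940, listed as the RGF receptors RGI1 and RGI2, and on PSY1R. No RGF or PSY gene is among the peptide genes analysed here. The listed genes FER, THE1, ANX1, ANX2, LRE and ACR4 were not called. Nor were AT4G26540 and AT1G34110, listed as the RGF receptors RGI3 and RGI5. In the order of the parabolas, AT4G26540 had log2 differences of 0.20, -0.27 and -0.21, and AT1G34110 of -0.09, -0.17 and -0.12. The median change of the 11 was -0.13, -0.14 and 0.04 in the order of the parabolas, and that of all genes 0.00796, 0.03 and 0.04. FER (FERONIA, the main RALF receptor of the root) averaged 9.09 ± 0.03 after the first parabola, 9.12 ± 0.11 after the third and 9.38 ± 0.21 after the tenth, against 9.26 ± 0.04 in level flight (SD), and was not called (adjusted p 0.355, 0.413 and 0.475). THE1 (THESEUS1) had log2 differences of -0.27, -0.26 and -0.27 and was not called.

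AT3G24240, a locus of the receptor list, was at 5.31, 5.56, 5.29 and 5.50 after the first parabola, 5.37, 5.30, 5.56 and 5.63 after the third, and 5.03, 5.28 and 5.56 after the tenth, against 5.66, 5.91, 5.81 and 6.08 in level flight. All 11 parabola arrays lay below the level flight arrays. It fell by 0.45 ± 0.13 after the first parabola (adjusted p = 0.0319), by 0.40 ± 0.13 after the third (adjusted p = 0.0478) and by 0.58 ± 0.14 after the tenth (adjusted p = 0.00709). The first-parabola call was lost without level flight replicate 2, 3 or 4 or first-parabola replicate 1 or 3 (adjusted p 0.0540 to 0.113), and the tenth-parabola call without tenth-parabola replicate 1 (adjusted p = 0.0556). The third-parabola call was lost without level flight replicate 2, 3 or 4, any first-parabola array, third-parabola replicate 1, 2 or 3 or tenth-parabola replicate 2 (adjusted p 0.0516 to 0.148), and with the unnamed-row median in the fit the adjusted p ranged from 0.0551 to 0.0870 over the 3 contrasts. The third-parabola call was also lost with median centring (adjusted p = 0.0606), repeated quantile normalization (0.106), reference gene centring (0.0628), all rows (0.0758), array weights (0.0546) and the compared groups alone (0.0516), and the first-parabola call with all rows (adjusted p = 0.0545).

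AT5G48940, also on the receptor list, averaged 5.70 ± 0.37 after the first parabola, against 6.25 ± 0.16 in level flight (SD, n = 4 each), and fell by 0.55 ± 0.14 (limma adjusted p = 0.0237). That call was lost without level flight replicate 1 or 4 or first-parabola replicate 3 (adjusted p 0.0616 to 0.0743), with the unnamed-row median in the fit (adjusted p = 0.0747) and with the compared groups alone (adjusted p = 0.0630). The third- and tenth-parabola arrays of AT5G48940 also lay below level flight. Those changes of -0.43 ± 0.14 (adjusted p = 0.0650) and -0.40 ± 0.16 (adjusted p = 0.106) were not called. No difference between its parabola groups was called. PSY1R, the receptor named for the sulfated growth peptide PSY1, was at 5.86, 5.57 and 4.97 after the tenth parabola, against 4.81, 4.89, 4.71 and 4.72 in level flight. All 3 lay above level flight, and PSY1R rose by 0.68 ± 0.15 (adjusted p = 0.00429), with an adjusted p of 0.0869 once the unnamed-row median was in the fit. Its first- and third-parabola changes of 0.06 and 0.16 were not called. The tenth-parabola minus first-parabola difference of 0.62 ± 0.15 was called (adjusted p = 0.0271), beside a background of 3.56%. That call was lost without first-parabola replicate 1 or 2 or tenth-parabola replicate 1 or 2 (adjusted p 0.0693 to 0.141). The unnamed-row median (0.917) and the compared groups alone (0.109) ended it too.

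Of 10 genes of a peptide maturation and downstream list 3 were measured, and limma called 0 in each contrast with level flight (at an unadjusted p under 0.05, 1 after the third parabola). Their median changes were 0.01, 0.12 and 0.08 in the order of the parabolas. They included S1P, the protease that cuts RALF precursors, which had log2 differences of 0.16, 0.23 and 0.09 over the same contrasts.

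Of 16 genes of a list of other secreted peptides 6 were measured, with median changes of -0.06, 0.04 and 0.13 in the order of the parabolas. After the first and after the third parabola 1 was called higher, and after the tenth 1 was called higher and 1 lower. These were 16.7%, 16.7% and 33.3% of the 6, beside 8.33%, 11.2% and 14.6% of all tested genes. AT4G34600 was at 8.56, 8.65, 8.84 and 8.83 after the first parabola, 8.71, 8.85, 8.69 and 8.52 after the third, and 8.92, 8.69 and 8.90 after the tenth, against 8.06, 8.06, 8.53 and 8.17 in level flight. The first- and tenth-parabola arrays lay above level flight, and third-parabola replicate 4 lay within it. It rose by 0.52 ± 0.12 (adjusted p = 0.00787), 0.49 ± 0.12 (adjusted p = 0.0102) and 0.63 ± 0.13 (adjusted p = 0.00201) in the order of the parabolas, and no call was lost on leaving out 1 array. With the unnamed-row median in the fit its first-parabola adjusted p was 0.0661, and with reference gene centring it was 0.0508. AT4G28460 was called lower after the tenth parabola, at 2.91, 2.88 and 2.96, against 3.63, 3.16, 3.78 and 4.27 in level flight. It fell by 0.79 ± 0.17 (limma adjusted p = 0.00452). Its changes of -0.51 ± 0.16 after the first parabola (adjusted p = 0.0643) and -0.48 ± 0.16 after the third (adjusted p = 0.0677) were not called. No difference between its parabola groups was called, and it lay below the array median on 13 of 15 arrays. CLV3, the CLE family's founding member, carries no number in its symbol; it was on this list and was not called.

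**Figure D4:**
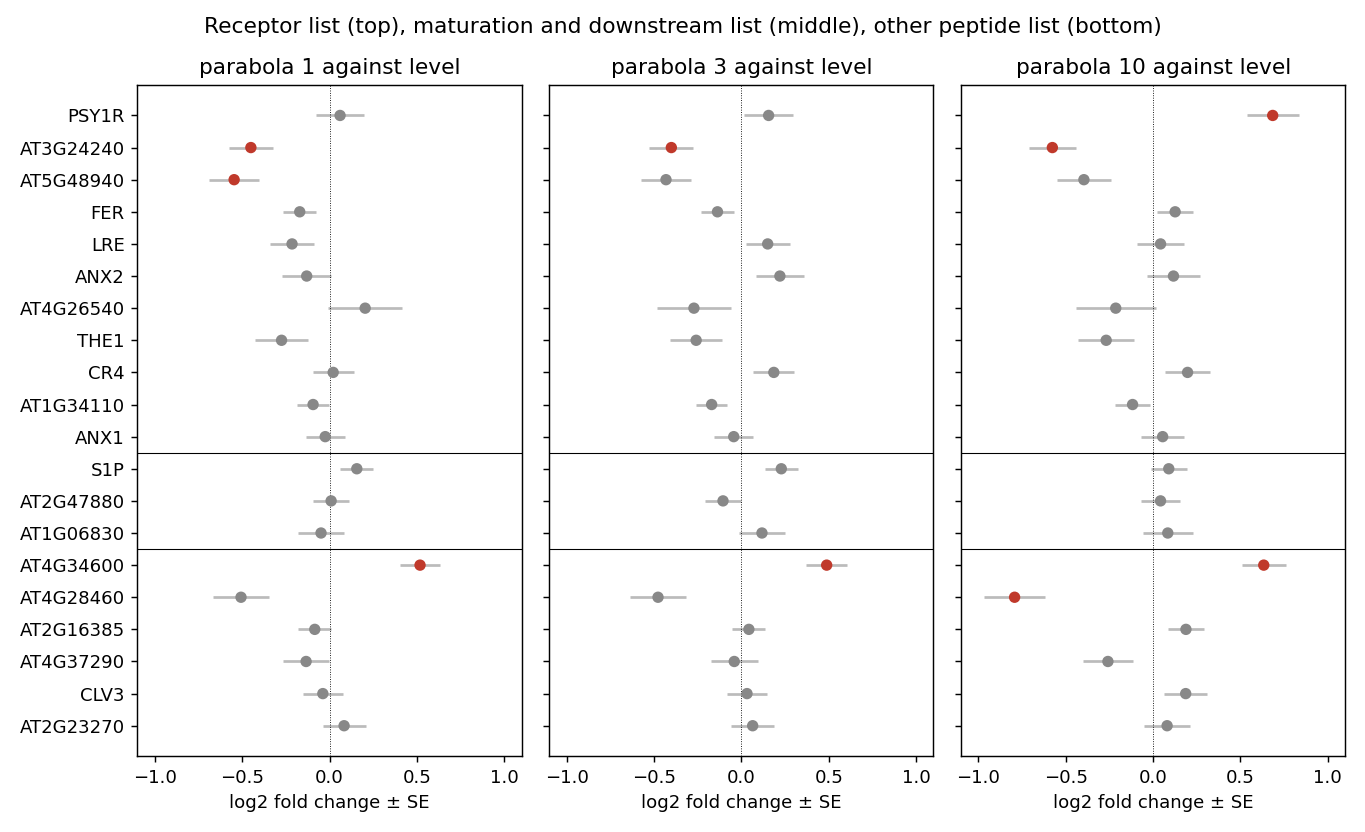
Log2 fold change with its standard error for 20 measured genes of the receptor, maturation and other peptide lists after 1, 3 and 10 parabolas against level flight. AT4G34600 is above 0 and AT3G24240 below 0 in all 3 contrasts, and the change of PSY1R after the tenth parabola is 0.68.

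The root hair expansin EXPA7 averaged 5.98 ± 0.19 after the first parabola, 6.22 ± 0.27 after the third and 6.48 ± 0.21 after the tenth, against 5.67 ± 0.16 in level flight (SD). Its changes of 0.55 ± 0.14 after the third parabola (adjusted p = 0.0145) and of 0.81 ± 0.15 after the tenth (adjusted p = 0.00118) were called, and the third-parabola call was lost without third-parabola replicate 2 (adjusted p = 0.0567). Of the 7 root hair markers, the other one measured, EXPA18, was not called. It had log2 differences of -0.02, -0.22 and 0.02 in the order of the parabolas, so it did not share the rise of EXPA7. Of the 4 reference genes measured, limma called none against level flight (1 at an unadjusted p under 0.05, after the tenth parabola). Their median changes were 0.16, 0.03 and 0.09. The part of root hair RNA in the peptide results was not tested.

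No called peptide genes were neighbours on a chromosome. By gene order in the RefSeq table, 10 of the 22 genes beside the 11 called members were tested, and 3 passed the F-test, which 15.7% of all tested genes passed. They were AT3G25900 beside CLE27, which changed by -0.57, -0.49 and -1.07 in the order of the parabolas, AT3G05500 beside RALFL22, at -0.65, -0.53 and -0.54, and AT2G34930 beside CLE42, at 0.65, 0.82 and 1.06. The gene on the other side of CLE27, AT3G25910, did not pass the F-test and had a first-parabola difference of 0.35 (adjusted p = 0.0322), where that of CLE27 was -0.18. RALFL25 and RALFL26 lie next to each other with no gene between, and neither was called.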

How the data were processed

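Total RNA of 15 root pools was hybridised to 1 array each. The deposited values are log2 intensities, and per the submitters' processing notes RMA, oligo, limma, R 4.0.0 and TAIR10 were used, with no order or parameters given. Of 38408 rows, 16722 name 1 gene, 759 several and 20927 none. The row with the highest mean was kept for each of 146 genes with several rows, which left 16550 genes. Symbols came from the array annotation and the RefSeq table (TAIR10.1, used for names and gene order only), which matched 16542 genes.

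limma 3.58.1 in R 4.3.3 was fitted to all 15 arrays, with 1 mean per group, eBayes and two-sided tests, and checked on simulated data. The F-test covered the contrasts against level flight. Every member past the threshold was named with its values, and up to 4 genes by F-test p from each of 7 lists. The number of arrays limits the precision. Members and lists were chosen with earlier results of these data known. Same-numbered arrays deviated together with correlations of -0.08 to 0.11 in 21 pairs, so the numbers were not taken as pairs. Arrays of a group correlated at 0.989 to 0.994, with no sign of repeats. Alternatives covered centring, normalization, filters, eBayes settings, array weights, the unnamed-row median, single arrays left out and fits of the compared groups alone.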

Additional observations from a re-analysis of the deposited data

Results flagged for a closer look

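In 108 groups of 4 arrays of the peptide genes, 7 had 1 array far from the other 3, where chance gives about 1 in 20. After the third parabola, CLE14 reached 7.32 on replicate 1 (others 6.86 to 6.92) and CLE16 reached 5.69 on replicate 4 (others 4.82 to 4.94). In the same group IDL3 was at 3.50 on replicate 2 (others 3.57 to 3.58) and RALFL34 at 4.91 on replicate 3 (others 5.11 to 5.13). In level flight, CLE1 was at 4.56 on replicate 2 (others 4.11 to 4.16), and RALFL29 at 2.01 on replicate 4, with the other 3 arrays all at 2.19. RALFL18 was at 5.76 on level flight replicate 3, against 5.24 to 5.28 on the others, and all its calls were kept without that array.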

How the results depend on the processing

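Of 19 calls of peptide genes, 3 were kept under every alternative (RALFL18 after the first and the third parabola and IDL4 after the tenth). Over 472 pairs of a call and an alternative, 342 kept the call, 130 lost it and 0 changed sign; for 12 calls of listed genes 258 of 300 kept it. At an adjusted p under 0.01 the genes called were 763, 923 and 1356 for the first, the third and the tenth parabola against level flight (1378, 1850 and 2423 at 0.05), 82 for the third against the first, 60 for the tenth against the third, 154 for the tenth against the first and 1359 in the F-test. The members called were then 1, 1 and 2, 0 for the third against the first and 1 in the F-test. With all rows tested the genes called were 2548, 3173 and 4460, 1525 for the tenth against the first and 4892 in the F-test, and 3 members were called after the first parabola. With the unnamed-row median in the fit the genes called were 916 after the first and 1336 after the tenth, and 52, 58 and 3 for the third against the first, the tenth against the third and the tenth against the first. The members called were then 1, 3 and 2 against level flight and 3 in the F-test. With the arrays of the compared groups alone, 2 members were called after the third parabola and 4 after the tenth, and 160, 69 and 366 genes between parabola groups in the same order. After the first and after the tenth parabola these fits gave 4 members each, 3 higher and 1 lower. In each of them the higher ones included a member that the main fit did not call. Array weights gave 118 genes for the tenth against the third. CLE26's third-against-first call was lost, leaving 0 members, with repeated quantile normalization, reference gene centring, all rows, the covariate or those arrays alone.

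Leaving out 1 array gave 1023 to 1417, 1369 to 1922 and 1723 to 2472 genes against level flight, 134 to 384, 89 to 247 and 274 to 761 between parabola groups, and 1977 to 2776 in the F-test. Members ranged over 1 to 5, 2 to 6 and 3 to 8 against level flight, 0 to 2 for the third against the first, 0 for the other contrasts and 2 to 7 in the F-test. The numbers do not pair the arrays; with the replicate block 4, 5 and 5 members and 1375, 1820 and 2266 genes were called against level flight. The block put the adjusted p at 0.0722 for IDL4 after the first parabola, 0.0668 for CLE43 after the third, and 0.0609 for CLE42 and 0.0772 for CLE27 after the tenth, and 4 of 15 arrays correlated best with their own number.

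Centring on 4 reference genes moved the median first-parabola change of all genes from 0.00796 to -0.13, and that of the members to -0.14. It put lower calls at 85.4%, 70.4% and 64.5% of genes called against level flight (58.3%, 59.9% and 48.5% otherwise) and at 25.9%, 66.7% and 32.3% between parabola groups (55.8%, 49.2% and 51.3% otherwise). No measure of signal over background was used here, and 18 of the 36 genes lay below the median on every array.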
